A study of Mus musculus and Sus scrofa with 30 samples.

Results

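The 34 genes described here encode the enzymes and carriers of mitochondrial fatty acid oxidation and of ketone body metabolism. They were taken by name, as every row of a gene table whose symbol equalled one of 34 symbols, ignoring case. All 34 were found among the 24843 genes of the mouse table and 33 among the 34307 genes of the pig table, where Acot2 was not analysed. A minimum mean of 10 normalized counts over the 15 libraries of a table was passed by 33 of the 34 mouse genes and by all 33 pig genes, and Bdh1 fell under it in the mouse. Mouse spelling is used for both species.

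The cells were 3T3-L1, a mouse embryonic fibroblast line that can become fat cells, and porcine dedifferentiated fat (DFAT) cells derived from subcutaneous fat. Both received an adipogenic mix, controls included: insulin at 0.75 µg/mL, dexamethasone at 75 nM, IBMX at 37.5 µM and 10% serum for 3T3-L1, and dexamethasone at 0.5 µM, IBMX at 12.5 µM, biotin at 20 µM, pantothenate at 10 µM and 2% serum for DFAT. On top of the mix they received DMSO vehicle, dicoumarol (a coumarin anticoagulant), magnolol (a magnolia lignan), both of these compounds (the combination), or rosiglitazone (a synthetic agonist of the nuclear receptor PPARγ). Each of the 5 groups of a system held 3 libraries, 30 in all, taken on day 5, and no compound dose was known here. Nothing in the labels says that the 3 libraries of a group came from separate cultures, so the p-values measure only the spread between these libraries, which may be technical. Estimated depth per library was 22.8 to 30.7 (3T3-L1) and 44.8 to 70.5 (DFAT) times 1e6 reads.

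Long-chain fatty acids are first joined to coenzyme A by acyl-CoA synthetases and cross into mitochondria as carnitine esters, through carnitine palmitoyltransferase 1, a carrier and carnitine palmitoyltransferase 2. Inside, acyl-CoA dehydrogenases, a hydratase, a 3-hydroxyacyl-CoA dehydrogenase and a thiolase shorten the chain by acetyl-CoA units, and the electrons of the first step reach the respiratory chain through the electron transfer flavoprotein. Many of these genes are known targets of PPAR receptors, and white fat cells use the synthetase encoded by Acsl1 both for oxidation and for lipid storage.

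The upstream sequences of 3 of these genes are shown because their values differed in kind. Acsl1 had the largest increase of the 34 genes in both systems, Acadvl was called in 3T3-L1 alone, and Cpt1a in DFAT alone. All sequences shown are of the mouse, and no upstream sequence of the pig was examined. They are the 250 bases before the RefSeq start on the mouse build GRCm38.p6, read 5′ to 3′ on the gene's strand, and Acsl1 has a pair of starts. Acsl1 lies on the plus strand (chr8:46470787-46471036 and chr8:46490716-46490965), Acadvl on the minus strand (chr11:70015429-70015678) and Cpt1a on the plus strand (chr19:3323051-3323300). Capitals mark the hexamer AGGTCA, a core motif of nuclear receptors, or its reverse complement TGACCT.
Acsl1, upstream start: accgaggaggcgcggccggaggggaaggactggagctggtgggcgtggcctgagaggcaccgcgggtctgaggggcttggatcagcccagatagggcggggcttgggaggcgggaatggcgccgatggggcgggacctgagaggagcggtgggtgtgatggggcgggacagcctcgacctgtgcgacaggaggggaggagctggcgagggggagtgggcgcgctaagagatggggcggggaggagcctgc
Acsl1, downstream start: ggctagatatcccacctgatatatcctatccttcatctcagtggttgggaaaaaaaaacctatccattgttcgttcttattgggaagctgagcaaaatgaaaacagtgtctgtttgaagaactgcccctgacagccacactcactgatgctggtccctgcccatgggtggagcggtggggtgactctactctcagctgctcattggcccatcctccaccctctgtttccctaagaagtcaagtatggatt
Acadvl: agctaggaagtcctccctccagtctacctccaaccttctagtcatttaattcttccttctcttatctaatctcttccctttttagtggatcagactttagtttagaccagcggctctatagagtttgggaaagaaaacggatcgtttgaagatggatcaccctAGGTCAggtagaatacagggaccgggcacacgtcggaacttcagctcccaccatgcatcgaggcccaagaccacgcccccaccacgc
Cpt1a: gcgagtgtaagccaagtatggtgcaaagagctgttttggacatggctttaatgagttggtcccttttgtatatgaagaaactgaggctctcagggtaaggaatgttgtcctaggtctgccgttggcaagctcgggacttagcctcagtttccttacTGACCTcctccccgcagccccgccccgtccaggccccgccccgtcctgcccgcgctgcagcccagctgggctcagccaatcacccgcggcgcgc
RefSeq promoters were matched for 27 of the 34 genes (29 promoters), and each motif was searched on both strands of the 250 bases before the start. The hexamer AGGTCA occurred in 4 of the 27 genes (14.8%): Cpt1a, Acadvl, Acadm and Echs1, against 15.8% of 27025 mouse genes. The PPAR direct repeat with a spacer of 1 base, AGGTCANAGGTCA, occurred in 0 of the 27 and in 0.0407% of all genes. Its relaxed form AGGNCANAGGNCA occurred in 0 of the 27 and in 0.400% of all genes, and the estrogen-related receptor element TCAAGGTCA in 0 of the 27 and in 0.422%. The repeat and the element contain the hexamer, and the relaxed form can. Motif matches are a description of these letters and not of binding.

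In 3T3-L1 cells most of the 33 tested genes were higher with rosiglitazone, led by Acsl1, and fewer were called with the combination or magnolol. Fold changes here are log2 differences of (normalized count + 1), SE is limma's moderated standard error, and a gene is called where its adjusted p, by limma with Benjamini-Hochberg adjustment over all 15723 mouse or 14819 pig genes tested, is under 0.05. Rosiglitazone against vehicle called 25 genes higher and 1 lower, with a median log2 fold change of 0.67 over the 33 genes, where 20.3% of all genes were called higher and 19.9% lower. The combination called 16 higher and 0 lower (median 0.34), where 3.86% and 1.36% of all genes were called. Magnolol called 4 higher and 0 lower (median 0.20), against 1.07% and 0.153% of all genes. Dicoumarol called 0 of 33 (median 0.13, smallest adjusted p 1.00, 4 genes at an unadjusted p under 0.05) and 0 of all genes (0%). The median over all genes lay within 0.01 of 0 in each comparison with vehicle. How many of all genes had an unadjusted p under 0.05 was not counted.

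The magnolol and combination counts depended on the fit and on single libraries. In 3T3-L1 the replicate numbers pair the libraries, and with that number as a block the counts were 1 for dicoumarol (0.502% of all genes), 13 for magnolol (4.96% of all genes), 20 for the combination and 29 for rosiglitazone. The block also raised the share of all genes called with magnolol, which was 1.23% without it. For the combination and rosiglitazone the share of all genes with the block is not given here. The magnolol count was 2 without vehicle replicate 1 or 3, and 1 without vehicle replicate 2 or magnolol replicate 1 or 3. It was also 2 with no filter on low values, after quantile normalization, or without the variance trend. The combination count was 7 without combination replicate 1 and 8 without combination replicate 3.

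In DFAT cells 10 of the 33 genes were called with rosiglitazone and at most 4 with any other treatment. Rosiglitazone called 7 genes higher and 3 lower (median 0.08), where 5.80% of all genes were called higher and 5.02% lower. The combination called 3 higher and 1 lower (median 0.01; all genes 6.11% and 4.06%), magnolol 1 and 1 (median −0.09; all genes 2.96% and 1.27%), and dicoumarol 1 and 1 (median 0.04; all genes 0.911% and 1.03%). The rosiglitazone count of 10 was 6 without vehicle replicate 1 and 5 with only the compared groups fitted. The dicoumarol count of 2 was 1 without vehicle replicate 1 or 2, without any 1 of the dicoumarol replicates, with no filter on low values or without the variance trend. The magnolol count of 2 was 1 without vehicle replicate 1 or magnolol replicate 1 or 3, with only the compared groups fitted or without the variance trend, and the combination count of 4 was 7 after quantile normalization. The tables of the systems were normalized separately, so values are set side by side and no difference between systems was tested.

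**Figure D1:**
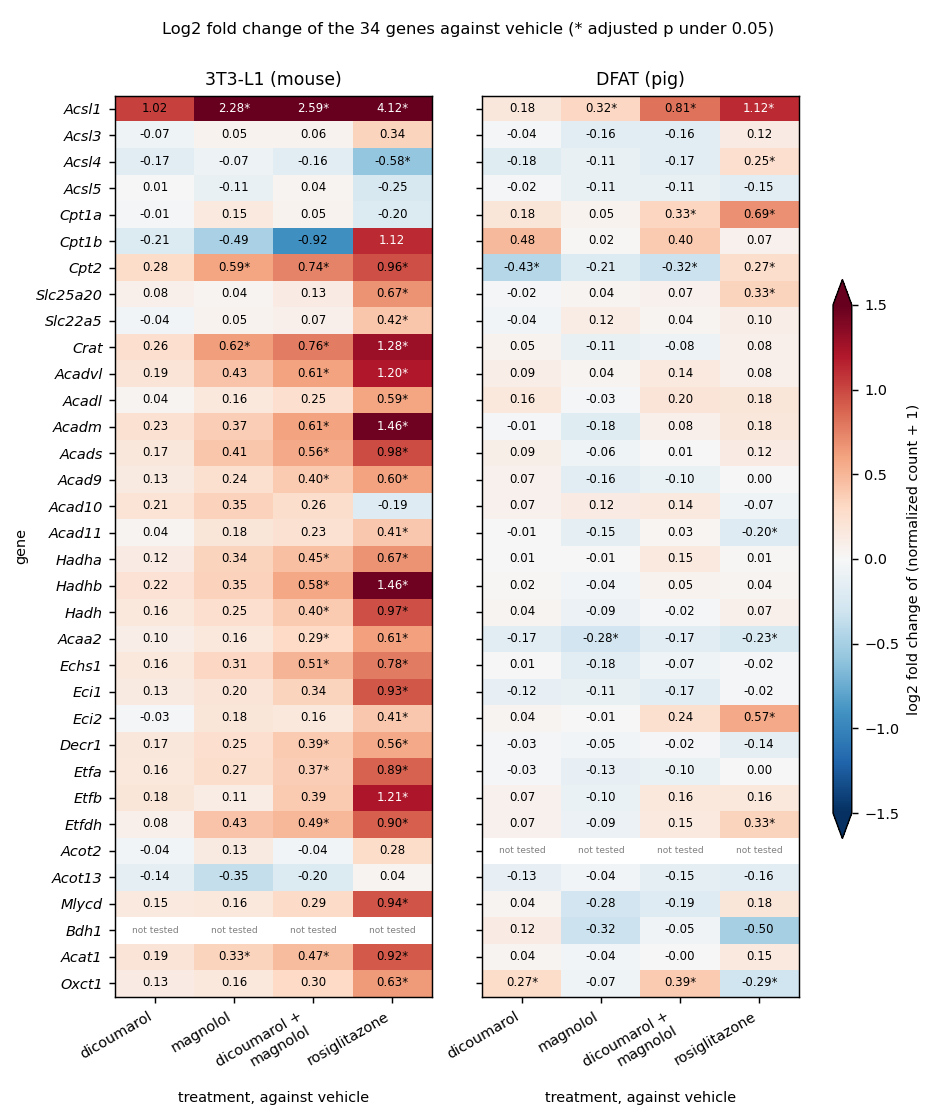
Log2 fold change against vehicle of each of the 34 genes (rows, in pathway order) for the 4 treatments (columns) in 3T3-L1 and DFAT cells; colour runs from −1.5 to 1.5 and saturates beyond, and an asterisk marks a limma adjusted p under 0.05. The 3T3-L1 rosiglitazone column holds 26 asterisks and the DFAT one 10, and Acsl1 is marked for magnolol, the combination and rosiglitazone in both systems.

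Of the 4 acyl-CoA synthetases, which activate long-chain fatty acids, Acsl1 rose in both systems and the others did not rise in both. Acsl1 stood in 3T3-L1 cells at 2982, 1780.4 and 1573 normalized counts with vehicle, 6806, 2555 and 4016 with dicoumarol, 12433, 7364 and 10530.0 with magnolol, 18239, 7596 and 13139 with the combination and 41186, 30547 and 35197 with rosiglitazone. No magnolol, combination or rosiglitazone library overlapped the vehicle libraries, while dicoumarol replicate 2 lay below vehicle replicate 1. The log2 fold changes were 1.02 with dicoumarol (adjusted p 1.00; 0.00576 with the replicate block), 2.28 (adjusted p 0.00692) with magnolol, 2.59 (adjusted p 0.000725) with the combination and 4.12 (adjusted p 4.32e-07) with rosiglitazone (SE 0.34 each). In DFAT cells Acsl1 stood at 7713, 6977 and 7536 normalized counts with vehicle, 8642, 8159 and 8286 with dicoumarol, 9053, 9335 and 9258 with magnolol, 13568, 12071 and 13361 with the combination and 16666, 15350.5 and 16394 with rosiglitazone. Every treated DFAT library was above every vehicle library, and the groups followed each other without overlap from vehicle to rosiglitazone. Its DFAT fold changes were 0.18 (adjusted p 0.202), 0.32 (adjusted p 0.00355), 0.81 (adjusted p 5.35e-08) and 1.12 (adjusted p 5.03e-10) in the same order (SE 0.06 each).

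Acsl4, which prefers arachidonate, was called with rosiglitazone in opposite directions. In 3T3-L1 it stood at 1825, 2723 and 1396 normalized counts with vehicle and 995, 1632 and 1282 with rosiglitazone, groups that overlapped, a fall by 0.58 (adjusted p 0.0294). That call was lost without vehicle replicate 2 (0.177) or rosiglitazone replicates 1 (0.154) or 3 (0.0604), without the variance trend (0.0556) or with only the compared groups fitted (0.0918). In DFAT the values were 45012, 45955 and 48294 with vehicle and 55719.8, 52263 and 57704 with rosiglitazone, without overlap, a rise of 0.25 (adjusted p 0.0128). The DFAT dicoumarol (40923, 39969 and 42067), magnolol (43837, 40807 and 44788) and combination (41542, 39882 and 42259) libraries all lay below vehicle, by uncalled log2 differences of −0.18 (adjusted p 0.221), −0.11 (adjusted p 0.418) and −0.17 (adjusted p 0.0941). The DFAT rosiglitazone call was lost without vehicle replicate 1 (0.0608) or rosiglitazone replicate 3 (0.0708) or with only the compared groups fitted (0.112). Acsl3 (0.34) and Acsl5 (−0.25), further synthetases, were not called with rosiglitazone in 3T3-L1 (adjusted p 0.0754 and 0.0925) but were with the replicate block (0.0182 and 0.0361). In DFAT neither was called against vehicle, with fold changes from −0.16 (with magnolol) to 0.12 (with rosiglitazone) for Acsl3 and from −0.15 (with rosiglitazone) to −0.02 (with dicoumarol) for Acsl5.

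Of the 6 genes of carnitine transport, 4 rose with rosiglitazone in 3T3-L1 and 3 in DFAT. Cpt1a encodes the liver form of carnitine palmitoyltransferase 1, the step that malonyl-CoA inhibits. In DFAT Cpt1a stood at 3774, 4195 and 4269 normalized counts with vehicle, 4372, 4719 and 4754 with dicoumarol, 3816, 4314 and 4557 with magnolol, 4691, 5151 and 5510.2 with the combination and 6211, 6881 and 6586 with rosiglitazone. The rosiglitazone libraries lay above all others, with a fold change of 0.69 (SE 0.08, adjusted p 6.56e-06). The combination gave 0.33 (adjusted p 0.00989), which did not stay under the threshold without vehicle replicate 1 (0.0647) or combination replicate 3 (0.0566). In 3T3-L1 Cpt1a stood at 1553, 2277 and 1971 with vehicle and 1393, 1883 and 1739 with rosiglitazone, groups that overlapped, with a fold change of −0.20 (adjusted p 0.298) that was called only with the replicate block (0.0218). Cpt1b, the muscle form, was low and not called against vehicle in either system. Its normalized counts ran from 2.75 to 83.6 over the 3T3-L1 libraries and from 13.7 to 42.9 over those of DFAT. Its 3T3-L1 fold changes ran from −0.92 (with the combination) to 1.12 (with rosiglitazone).

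Cpt2, the inner-membrane transferase that returns the acyl group to coenzyme A, moved in opposite directions with the combination. In 3T3-L1 it stood at 1129, 930.3 and 1139 normalized counts with vehicle, 1401, 1053 and 1437 with dicoumarol, 1658, 1488 and 1652 with magnolol, 1949.8, 1488 and 1922 with the combination and 1867, 2065 and 2298 with rosiglitazone. The magnolol, combination and rosiglitazone groups lay above vehicle without overlap, by 0.59 (adjusted p 0.0433), 0.74 (adjusted p 0.00391) and 0.96 (adjusted p 4.75e-05) (SE 0.13 each). The magnolol call was lost without any 1 of the 6 libraries (0.0692 to 0.194), with no filter on low values (0.0526), after quantile normalization (0.0529) or without the variance trend (0.112). In DFAT Cpt2 stood at 2986, 3261 and 2968 normalized counts with vehicle, 2212, 2450.2 and 2177 with dicoumarol, 2501, 2980.4 and 2513 with magnolol, 2377, 2615 and 2387 with the combination and 3788, 3876 and 3419.9 with rosiglitazone. It was below vehicle without overlap with dicoumarol (−0.43, SE 0.08, adjusted p 0.00495) and the combination (−0.32, adjusted p 0.0123), and above it with rosiglitazone (0.27, adjusted p 0.0348). The combination call was lost without vehicle replicate 2 (0.0555) or combination replicate 1 (0.0550). The rosiglitazone call was lost without vehicle replicates 1 (0.122) or 3 (0.103) or rosiglitazone replicates 1 (0.0960) or 2 (0.0913), with no filter on low values (0.0741), without the variance trend (0.0716) or with only the compared groups fitted (0.0777). Magnolol gave −0.21 (adjusted p 0.164), which was not called.

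Slc25a20, the carnitine-acylcarnitine carrier of the inner membrane, rose with rosiglitazone in both systems. Its 3T3-L1 values were 397, 399.7 and 487 with vehicle and 645, 671 and 721 with rosiglitazone (0.67, adjusted p 8.33e-05), and its DFAT values 1705, 1762 and 1765 and 2057, 2314 and 2209 (0.33, adjusted p 0.00221), without overlap in either. Crat, carnitine acetyltransferase, rose in 3T3-L1 from 1970.4, 1737 and 1846 with vehicle to 3085, 2568 and 2908 with magnolol, 3647, 2761 and 3074 with the combination and 4680.0, 4482 and 4331 with rosiglitazone. These groups did not overlap vehicle, and the fold changes were 0.62 (adjusted p 0.0112), 0.76 (adjusted p 0.000973) and 1.28 (adjusted p 4.73e-07). With magnolol Crat was no longer called without vehicle replicate 2 (0.0541) or magnolol replicates 1 (0.0786) or 3 (0.0572). Crat was not called in DFAT, at −0.11 (with magnolol) to 0.08 (with rosiglitazone). Slc22a5, the plasma membrane carnitine transporter, rose in 3T3-L1 with rosiglitazone, from 455, 448 and 515 to 727, 540.5 and 638 (0.42, adjusted p 0.0125), a call lost without rosiglitazone replicate 1 (0.07). It was not called in DFAT, at −0.04 (with dicoumarol) to 0.12 (with magnolol).

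**Figure D2:**
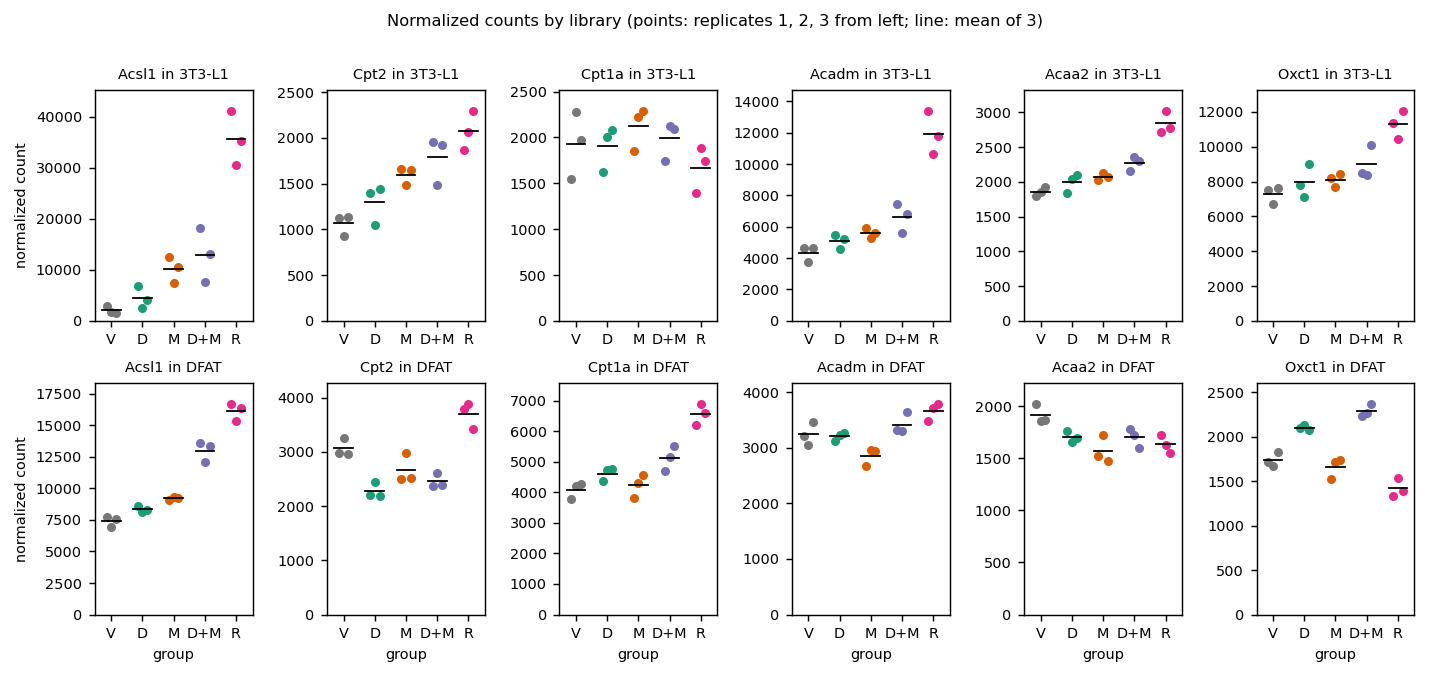
Normalized counts (vertical axes from 0) of Acsl1, Cpt2, Cpt1a, Acadm, Acaa2 and Oxct1 in each library, 3T3-L1 above and DFAT below; V is vehicle, D dicoumarol, M magnolol, D+M the combination and R rosiglitazone, points are the replicates and lines the mean of 3. In 3T3-L1 all 3 rosiglitazone points lie above every other point for Acsl1, Acadm, Acaa2 and Oxct1, and in DFAT they do so for Acsl1, Cpt1a and Cpt2 and lie below vehicle for Acaa2 and Oxct1.

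Of the 7 acyl-CoA dehydrogenases, which take the first pair of hydrogens from the chain, 6 rose with rosiglitazone in 3T3-L1 and 4 with the combination. Acadm, the medium-chain enzyme, stood at 4629, 3781 and 4632 normalized counts with vehicle, 5497, 4569.8 and 5227 with dicoumarol, 5890.2, 5253 and 5620.4 with magnolol, 7464, 5619 and 6824 with the combination and 13405, 10646 and 11784 with rosiglitazone. Its fold changes were 0.61 (adjusted p 0.00716) with the combination and 1.46 (SE 0.12, adjusted p 4.3e-07) with rosiglitazone, and neither group overlapped vehicle. The combination call was lost without combination replicate 1 (0.0626). Magnolol also lay above vehicle without overlap, but its 0.37 (adjusted p 0.223) was called only with the replicate block (0.00261). Acadvl, the very-long-chain enzyme of the inner membrane, stood at 1804, 1587 and 1875 with vehicle, 2466, 2057 and 2579 with magnolol, 2862, 2346 and 2830.5 with the combination and 3984, 3933 and 4119 with rosiglitazone. None of the magnolol, combination or rosiglitazone groups overlapped vehicle, with 0.43 (adjusted p 0.0828), 0.61 (adjusted p 0.00382) and 1.20 (adjusted p 1.04e-06), and magnolol was called with the block (0.000902).

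Acads, the short-chain enzyme, rose in 3T3-L1 from 754, 598 and 856 to 1138, 1005 and 1089 with the combination (0.56, adjusted p 0.0270) and 1322, 1455 and 1549 with rosiglitazone (0.98, adjusted p 5.16e-05). Its combination call was lost without vehicle replicates 1 (0.0574) or 2 (0.115) or combination replicates 1 (0.136) or 3 (0.0797) or without the variance trend (0.0582), and magnolol (0.41, adjusted p 0.243) was called with the block (0.0141). Acad9, which also serves in the assembly of respiratory complex I, rose from 1185, 1191 and 1200.3 to 1655, 1448 and 1612 (0.40, adjusted p 0.0168) and 1715, 1877 and 1846 (0.60, adjusted p 8.21e-05). The combination call of Acad9 was lost without vehicle replicate 1 (0.0531) or combination replicates 1 (0.106) or 3 (0.0647). Acadl, the long-chain enzyme, rose with rosiglitazone (0.59, adjusted p 0.000263), and with the combination (0.25, adjusted p 0.190) only with the block (0.0132). Acad11 rose with rosiglitazone from 528, 513 and 535 to 708, 653 and 730.2 (0.41, adjusted p 0.00729). Acad10 stood at 195, 209 and 205 with vehicle and 159.9, 185 and 189 with rosiglitazone. The dicoumarol, magnolol and combination libraries of Acad10 lay above vehicle and the rosiglitazone libraries below it, with uncalled differences from −0.19 (with rosiglitazone) to 0.35 (with magnolol).

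In DFAT 1 of the 7 dehydrogenases was called against vehicle. Acad11 stood at 1407, 1450.3 and 1368 with vehicle and 1207, 1240.1 and 1237 with rosiglitazone, without overlap, a fall by 0.20 (adjusted p 0.0430). That call was lost without vehicle replicates 1 (0.107) or 2 (0.146) or rosiglitazone replicates 1 (0.106), 2 (0.0528) or 3 (0.0941) or with only the compared groups fitted (0.203). Acadm in DFAT stood at 3206, 3056 and 3469 normalized counts with vehicle, 3129, 3231 and 3260.2 with dicoumarol, 2670.5, 2958 and 2950.4 with magnolol, 3316, 3296 and 3636 with the combination and 3479, 3721 and 3782 with rosiglitazone. Only the rosiglitazone group lay above vehicle without overlap and only the magnolol group below it, with 0.18 (adjusted p 0.0999) and −0.18 (adjusted p 0.140), neither called. Acadvl, Acadl, Acads, Acad9 and Acad10 were not called in DFAT, with fold changes from −0.16 (Acad9 with magnolol) to 0.20 (Acadl with the combination).

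The 5 genes of the hydration, second dehydrogenation and thiolysis steps rose together in 3T3-L1, 5 of 5 with the combination and with rosiglitazone. Hadha and Hadhb encode the subunits of the trifunctional protein, which handles long chains, and are divergent neighbours on mouse chromosome 5. Hadhb stood at 704, 584 and 771 normalized counts with vehicle, 813, 703 and 879 with dicoumarol, 926, 783 and 903 with magnolol, 1065, 878 and 1129 with the combination and 2081, 1604 and 1975 with rosiglitazone. The combination and rosiglitazone groups lay above vehicle without overlap, by 0.58 (adjusted p 0.0194) and 1.46 (SE 0.13, adjusted p 1.04e-06). Hadha rose from 3952, 4107 and 4099 to 5856, 5007 and 5798 with the combination (0.45, adjusted p 0.0128) and 5808, 6563 and 7023 with rosiglitazone (0.67, adjusted p 6.83e-05). With the combination the Hadhb call was lost without vehicle replicate 2 (0.0886) or combination replicates 1 (0.104) or 3 (0.0873), and that of Hadha without combination replicates 1 (0.0850) or 3 (0.0563). With magnolol Hadhb (0.35, adjusted p 0.349) and Hadha (0.34, adjusted p 0.144) were called with the block (0.00580 and 0.0149).

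Echs1, the short-chain enoyl-CoA hydratase, rose in 3T3-L1 from 1790.4, 1618 and 1679.7 to 2532, 2177 and 2568 with the combination (0.51, adjusted p 0.00332) and 2618, 2946 and 3165 with rosiglitazone (0.78, adjusted p 9.74e-06). Hadh, the 3-hydroxyacyl-CoA dehydrogenase of shorter chains, rose by 0.40 (adjusted p 0.0168) and 0.97 (adjusted p 1.09e-06), and its combination call was lost without vehicle replicate 2 (0.0709) or combination replicates 1 (0.0625) or 3 (0.0797) or with only the compared groups fitted (0.0605). With magnolol Echs1 (0.31, adjusted p 0.162) and Hadh (0.25, adjusted p 0.302) were called with the block (0.0294 and 0.0431). Acaa2, the thiolase, stood at 1793, 1852 and 1923 normalized counts with vehicle, 1845, 2048 and 2094 with dicoumarol, 2021, 2132 and 2078 with magnolol, 2164, 2359 and 2304 with the combination and 2725, 3026 and 2772 with rosiglitazone. Its groups did not overlap vehicle from magnolol on, with 0.29 (adjusted p 0.0364) for the combination and 0.61 (adjusted p 1.74e-05) for rosiglitazone, and the combination call was lost without any 1 of the 6 libraries (0.0601 to 0.120), with no filter on low values (0.0575), without the variance trend (0.0587) or with only the compared groups fitted (0.113).

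Acaa2 was lower than vehicle in every treated DFAT group. It stood there at 2018, 1857 and 1867 normalized counts with vehicle, 1761, 1655 and 1690.1 with dicoumarol, 1526, 1726 and 1472 with magnolol, 1785, 1721 and 1599 with the combination and 1721, 1632 and 1555 with rosiglitazone. No treated library reached the lowest vehicle library, and the fold changes were −0.17 (adjusted p 0.381), −0.28 (adjusted p 0.0273), −0.17 (adjusted p 0.145) and −0.23 (adjusted p 0.0483) in that order. The magnolol call was lost without vehicle replicate 1 (0.141) or magnolol replicates 1 (0.119) or 3 (0.137), without the variance trend (0.0527) or with only the compared groups fitted (0.0692). The rosiglitazone call was lost without vehicle replicates 1 (0.196), 2 (0.0777) or 3 (0.0649) or rosiglitazone replicates 2 (0.0728) or 3 (0.180), with no filter on low values (0.0702), without the variance trend (0.0706) or with only the compared groups fitted (0.145). Hadha, Hadhb, Hadh and Echs1 were not called in DFAT, with fold changes from −0.18 (Echs1 with magnolol) to 0.15 (Hadha with the combination).

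Unsaturated chains need the isomerases Eci1 and Eci2 and the reductase Decr1, and all 3 rose with rosiglitazone in 3T3-L1. Eci1 stood at 951, 895 and 1119 with vehicle and 2084, 1778 and 1786 with rosiglitazone (0.93, adjusted p 2.85e-06), and its combination value of 0.34 (adjusted p 0.0513) was called with the block (0.0151). Decr1 rose with the combination (0.39, adjusted p 0.0301) and rosiglitazone (0.56, adjusted p 0.000313), and the combination call was lost without vehicle replicates 1 (0.0839), 2 (0.0658) or 3 (0.0799) or combination replicates 1 (0.115) or 3 (0.132), without the variance trend (0.0588) or with only the compared groups fitted (0.0528). Eci2 rose with rosiglitazone in both systems. In 3T3-L1 it stood at 1746, 1905 and 1841 and 2454, 2503 and 2332 (0.41, adjusted p 0.000366). In DFAT it stood at 3929, 3804 and 3572 normalized counts with vehicle, 4235, 3742 and 3630.3 with dicoumarol, 3992, 3905 and 3356 with magnolol, 4805, 4550.0 and 4045 with the combination and 6006, 5520.2 and 5237 with rosiglitazone, with rosiglitazone at 0.57 (SE 0.08, adjusted p 0.000143) and above all other groups. Eci1 and Decr1 were not called in DFAT, with fold changes from −0.17 (Eci1 with the combination) to −0.02 (Eci1 with rosiglitazone).

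The electron transfer flavoprotein, whose subunits are encoded by Etfa and Etfb, passes electrons from the dehydrogenases to its oxidoreductase, encoded by Etfdh. All 3 rose with rosiglitazone in 3T3-L1. Etfa stood at 2364, 2328 and 2286 normalized counts with vehicle, 2593, 2574 and 2617 with dicoumarol, 2836, 2894 and 2677 with magnolol, 3112, 2969 and 2967 with the combination and 4352, 4149 and 4407 with rosiglitazone. Every treated library lay above every vehicle library, and the fold changes were 0.16 (adjusted p 1.00), 0.27 (adjusted p 0.0694), 0.37 (adjusted p 0.00346) and 0.89 (adjusted p 2.36e-07) in that order, with magnolol called only with the block (0.0128). Etfb stood at 2535, 1832 and 2583 with vehicle and 6367, 4545 and 5178 with rosiglitazone (1.21, adjusted p 4.44e-06), and the combination (0.39, adjusted p 0.110) was called with the block (0.0102). Etfdh rose with the combination (0.49, adjusted p 0.0177) and rosiglitazone (0.90, adjusted p 1.74e-05), and with magnolol (0.43, adjusted p 0.0947) only with the block (0.00638). Its combination call was lost without vehicle replicate 1 (0.0572) or combination replicates 1 (0.109) or 3 (0.0791). In DFAT Etfdh stood at 3522, 3365 and 3716 with vehicle and 4458, 4493 and 4388 with rosiglitazone, without overlap (0.33, SE 0.06, adjusted p 0.000511). Etfa and Etfb were not called there, with fold changes from −0.13 (Etfa with magnolol) to 0.16 (Etfb with rosiglitazone).

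Of the genes around malonyl-CoA and free acyl groups, Mlycd, the decarboxylase that removes malonyl-CoA, rose in 3T3-L1 with rosiglitazone, from 281, 209.7 and 262 to 597, 439 and 421 (0.94, adjusted p 0.000201). It was not called in DFAT, at −0.28 (with magnolol) to 0.18 (with rosiglitazone). The acyl-CoA thioesterase genes Acot2 (3T3-L1 alone) and Acot13 were not called in any comparison with vehicle, with 3T3-L1 fold changes from −0.35 (Acot13 with magnolol) to 0.28 (Acot2 with rosiglitazone). Reads of Acot2 may be shared with its near-identical neighbour Acot1. In DFAT Acot13 stood at 624, 619 and 634 normalized counts with vehicle, 526, 599 and 598 with dicoumarol, 615, 574 and 642 with magnolol, 519, 559 and 617 with the combination and 521, 584 and 578 with rosiglitazone. Its dicoumarol, combination and rosiglitazone libraries lay below vehicle without overlap, by uncalled differences that reached −0.13 (adjusted p 0.7) with dicoumarol, −0.15 (adjusted p 0.297) with the combination and −0.16 (adjusted p 0.3) with rosiglitazone.

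The 3 ketone genes are Acat1 (the mitochondrial acetoacetyl-CoA thiolase), Oxct1 (the transferase by which tissues use acetoacetate) and Bdh1 (3-hydroxybutyrate dehydrogenase). Oxct1 moved differently in the systems. In 3T3-L1 it stood at 7511, 6689.8 and 7638 normalized counts with vehicle, 7809.8, 7117 and 9003 with dicoumarol, 8180.0, 7683 and 8458 with magnolol, 8478, 8397 and 10107 with the combination and 11359.7, 10434 and 12074 with rosiglitazone. Only rosiglitazone was called (0.63, adjusted p 0.000184), with all 3 libraries above vehicle, while the combination (0.30, adjusted p 0.117) was called with the block (0.00524). In DFAT Oxct1 stood at 1716, 1672 and 1831 normalized counts with vehicle, 2096, 2128 and 2069.6 with dicoumarol, 1528, 1719 and 1737 with magnolol, 2227, 2271 and 2363 with the combination and 1333, 1536 and 1393 with rosiglitazone. The dicoumarol and combination groups lay above vehicle and the rosiglitazone group below it, without overlap. These fold changes were 0.27 (adjusted p 0.0467), 0.39 (adjusted p 0.00075) and −0.29 (adjusted p 0.00745) (SE 0.07 each), and magnolol gave −0.07 (adjusted p 0.668). The dicoumarol call was lost without vehicle replicates 1 (0.173) or 2 (0.165) or dicoumarol replicates 1 (0.153), 2 (0.192) or 3 (0.141), with no filter on low values (0.0733) or without the variance trend (0.0876). The rosiglitazone call was lost with only the compared groups fitted (0.0674).

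Acat1 rose in 3T3-L1 with magnolol, the combination and rosiglitazone, from 3192, 2921 and 3028 with vehicle to 3886, 3650.4 and 3949, 4440.1, 3983 and 4272 and 5630.0, 5721 and 5884. The 3 treated groups did not overlap vehicle, with 0.33 (adjusted p 0.0445), 0.47 (adjusted p 0.00182) and 0.92 (adjusted p 4.3e-07). The magnolol call was lost without any 1 of the 6 libraries (0.0692 to 0.225), with no filter on low values (0.0698), after quantile normalization (0.0619), without the variance trend (0.0905) or with only the compared groups fitted (0.153). In DFAT Acat1 was not called, with 0.15 (adjusted p 0.159) for rosiglitazone. Bdh1 was listed at 0 in 13 of the 15 3T3-L1 libraries. In DFAT it had 57.5, 50.4 and 63.1 normalized counts with vehicle and 33.3, 52.2 and 36.7 with rosiglitazone (−0.50, adjusted p 0.145), which was not called.

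Side by side, 32 genes were tested in both systems. With rosiglitazone 5 were called higher in both (Acsl1, Cpt2, Slc25a20, Eci2 and Etfdh) and 4 were called in opposite directions: Acad11, Acaa2 and Oxct1 higher in 3T3-L1 and lower in DFAT, and Acsl4 the reverse. Another 17 were called in 3T3-L1 alone, 1 (Cpt1a) in DFAT alone and 5 in neither. With the combination Acsl1 was called higher in both, Cpt2 higher in 3T3-L1 and lower in DFAT, 14 genes in 3T3-L1 alone and 2 (Cpt1a and Oxct1) in DFAT alone. A call in 1 system and not in the other does not show that the systems differ. Calls shared, opposed or limited to 1 system were not counted over all genes. Whether these counts are unusual for this set can therefore not be told. The median SE of the 33 genes was 0.11 in 3T3-L1 and 0.07 in DFAT.

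**Figure D3:**
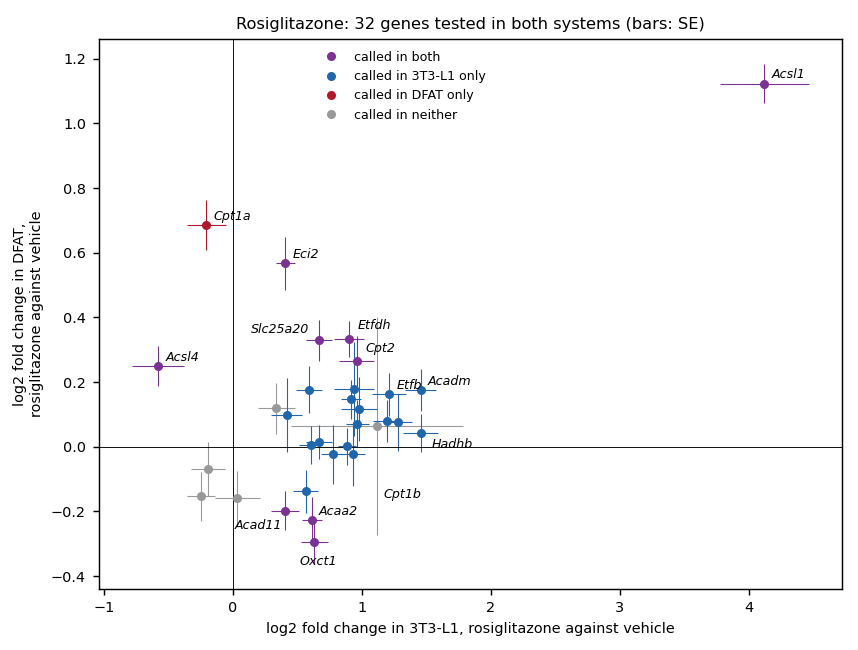
Log2 fold change with rosiglitazone in 3T3-L1 (horizontal) and DFAT (vertical) for the 32 genes tested in both systems; bars are the SE and colours show where a gene was called. Most genes lie between 0.4 and 1.5 on the horizontal axis and within 0.2 of 0 on the vertical one, and Acsl1 lies apart at 4.12 and 1.12.

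A graded order of the groups was common in 3T3-L1. The group means rose from vehicle through dicoumarol, magnolol and the combination to rosiglitazone in 21 of 33 genes (63.6%), against 10.6% of all tested genes, and in DFAT in 1 of 33 (3.03%, Acsl1) against 1.94%. Rosiglitazone had the highest mean in 29 of 33 genes in 3T3-L1 (41.2% of all genes) and in 16 of 33 in DFAT (28.4%). As the median over the 33 genes, single 3T3-L1 libraries differed from the vehicle mean by −0.06 to 0.03 with vehicle, 0.03 to 0.21 with dicoumarol, 0.20 to 0.29 with magnolol, 0.29 to 0.39 with the combination and 0.63 to 0.77 with rosiglitazone. The magnolol, combination and rosiglitazone ranges did not overlap each other, and the highest dicoumarol library lay above the lowest magnolol one. Within each replicate number the dicoumarol median was above that of vehicle (0.13 and 0.004, 0.03 and −0.06, 0.21 and 0.03 for replicates 1 to 3), and the combination median was above that of magnolol (0.39 and 0.29, 0.29 and 0.20, 0.39 and 0.24). In DFAT all 15 medians lay between −0.10 and 0.11. The order is a description, and limma called 0 of the 33 genes in 3T3-L1 between dicoumarol and vehicle and 0 between the combination and magnolol.

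**Figure D4:**
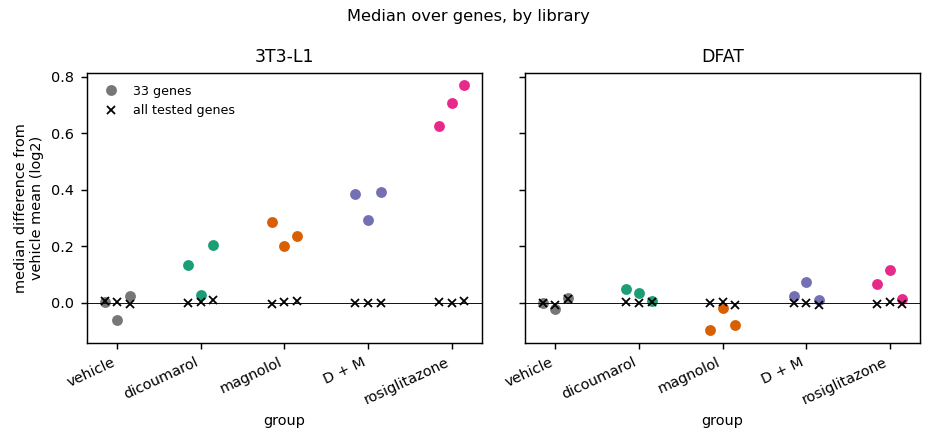
Median over genes of each library's log2 difference from the vehicle mean, by group and replicate, for the 33 tested genes (dots) and for all tested genes (crosses) in 3T3-L1 and DFAT. In 3T3-L1 the dots climb from −0.06 to 0.77 while the crosses stay at 0, and in DFAT both stay within about 0.1 of 0.

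The combination was also set against each compound alone. In 3T3-L1 limma called 0 of 33 against dicoumarol (0.0254% of all genes called, 18 members at an unadjusted p under 0.05, median 0.21) and 0 against magnolol (0% of all genes called, 2 members unadjusted, median 0.14). The share of all genes at the unadjusted cut was not counted. With the replicate block 11 were called against dicoumarol, all higher (3.62% of all genes): Acsl1, Cpt2, Crat, Acadvl, Acadm, Acads, Hadha, Hadhb, Echs1, Etfdh and Acat1, with Acsl1 at 1.57 (adjusted p 4.84e-05) and Crat at 0.51 (0.000656). The count against dicoumarol was 2 without combination replicate 2, and against magnolol it was 0 with the block as well. In DFAT Acsl1 was called against dicoumarol (0.63, adjusted p 3.31e-06), the single call of 33 there, where 2.00% of all genes were called higher and 0.344% lower. Against magnolol Acsl1 (0.49, adjusted p 0.000345) and Oxct1 (0.46, adjusted p 0.00233) were called, where 0.385% of all genes were called higher and 0.236% lower. The numbers pair the DFAT magnolol and combination libraries, and with the block 8 genes were called there (1.96% of all genes): these plus Cpt1a, Acadl, Acadm, Eci2, Etfb and Etfdh, all higher, at 0.23 to 0.28 with adjusted p from 0.00269 (Cpt1a) to 0.0496 (Acadl). Quantile normalization gave 4.

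The interaction is the log2 change with the combination minus those with its components added up. It called 0 of 33 genes in 3T3-L1 (0% of all genes, 0 members at an unadjusted p under 0.05) and 0 of 33 in DFAT (0.0810% of all genes). In DFAT 6 genes had an unadjusted p under 0.05, all above the sum: Acsl1 (0.32), Cpt2 (0.32), Acaa2 (0.28), Acadm (0.27), Acad11 (0.19) and Etfdh (0.17), with limma adjusted p from 0.529 (Acsl1) upwards. The share of all genes at that unadjusted cut was not counted.

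Rosiglitazone was also set against the combination. In 3T3-L1 19 genes were higher and 1 was lower with rosiglitazone (median 0.34), where 9.53% of all genes were called higher and 8.78% lower. The largest differences were those of Cpt1b (2.04, adjusted p 0.0448), Acsl1 (1.53, adjusted p 0.00776), Hadhb (0.88, adjusted p 0.00102), Acadm (0.85, adjusted p 0.000741) and Etfb (0.82, adjusted p 0.00129). Cpt1b rested on combination values of 2.75, 14.1 and 50.8, and its call was lost without combination replicates 1 (0.191) or 2 (0.0888) or rosiglitazone replicates 1 (0.173), 2 (0.0519) or 3 (0.0691), with no filter on low values (0.0624), without the variance trend (0.0752) or with only the compared groups fitted (0.113). Acad10 was the gene that was lower (−0.45, adjusted p 0.0282), a call lost without combination replicates 1 (0.0871) or 3 (0.0827) or rosiglitazone replicate 1 (0.127) or with only the compared groups fitted (0.0716). The other calls were Slc25a20, Crat, Acadvl, Acadl, Acads, Hadh, Acaa2, Eci1, Eci2, Etfa, Etfdh, Mlycd, Acat1 and Oxct1, at 0.25 (Eci2) to 0.66 (Mlycd). Of these, the call of Acads was lost without any 1 of the 6 libraries (0.0701 to 0.131), with no filter on low values (0.0640) or without the variance trend (0.0761). That of Acadl was lost without combination replicates 1 (0.0861) or 2 (0.0969) or rosiglitazone replicates 1 (0.0931) or 3 (0.123), without the variance trend (0.0542) or with only the compared groups fitted (0.0865). That of Oxct1 was lost without combination replicates 1 (0.121) or 2 (0.121) or rosiglitazone replicates 1 (0.104) or 3 (0.116), with no filter on low values (0.0593), after quantile normalization (0.0626), without the variance trend (0.06) or with only the compared groups fitted (0.0902). The Eci2 call was lost without combination replicates 2 (0.0671) or 3 (0.102) or rosiglitazone replicates 1 (0.0853) or 2 (0.0513) or with only the compared groups fitted (0.103). The Etfdh call was lost without combination replicate 2 (0.0990) or rosiglitazone replicate 3 (0.0668) or with only the compared groups fitted (0.0503). The Mlycd call was lost without combination replicate 3 (0.0535) or rosiglitazone replicate 1 (0.0637), and that of Acaa2 with only the compared groups fitted (0.0592). With the block Slc22a5 (0.34, adjusted p 0.0287), Hadha (0.22, 0.0385) and Echs1 (0.26, 0.0163) were also higher, and Acsl4 (−0.42, 0.0225), Acsl5 (−0.29, 0.0263) and Cpt1a (−0.26, 0.00960) lower. The share of all genes called with the block in this comparison is not given here. The count of 20 was 13 with only the compared groups fitted.

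In DFAT rosiglitazone gave 8 genes higher and 2 lower than the combination (median 0.10), where 8.24% of all genes were called higher and 8.79% lower. Oxct1 was lower (−0.69, SE 0.07, adjusted p 2.06e-06), and Cpt2 was higher (0.59, adjusted p 4.39e-05). The other higher genes were Acsl4 (0.42, adjusted p 0.000126), Cpt1a (0.36, adjusted p 0.00325), Eci2 (0.32, adjusted p 0.0119), Acsl1 (0.31, adjusted p 0.00130), Acsl3 (0.28, adjusted p 0.02), Slc25a20 (0.26, adjusted p 0.00986) and Etfdh (0.18, adjusted p 0.0308), and Acad11 was lower (−0.23, adjusted p 0.0141). The Acsl3 call was lost without combination replicates 1 (0.0628) or 2 (0.0925) or rosiglitazone replicate 3 (0.0880) or with only the compared groups fitted (0.0721). That of Slc25a20 was lost without combination replicate 1 (0.0579) or with only the compared groups fitted (0.0852), that of Acad11 without combination replicate 2 (0.0605) or with only the compared groups fitted (0.0896) and that of Eci2 without combination replicate 3 (0.0659). Etfdh was no longer called without combination replicate 1 (0.139) or rosiglitazone replicates 1 (0.0583), 2 (0.0628) or 3 (0.0583) or with only the compared groups fitted (0.132). The numbers pair these DFAT libraries too, and the block added Acad10 (−0.21, adjusted p 0.0216), Hadha (−0.13, 0.0454), Mlycd (0.37, 0.0121) and Acat1 (0.15, 0.0230). For this comparison, too, the share of all genes called with the block is not given here. The count of 10 was 6 with only the compared groups fitted.

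A further list of 44 genes of the same pathway (its receptors and coactivators, AMP-activated kinase subunits, acetyl-CoA carboxylases and branched-chain and ketone enzymes) had 39 tested genes in the mouse and 38 in the pig. In 3T3-L1 it gave 0 calls with dicoumarol (1 at an unadjusted p under 0.05), 1 higher with magnolol, 10 higher with the combination and 22 higher and 2 lower with rosiglitazone. In either direction these were 2.56%, 25.6% and 61.5% of the tested list for magnolol, the combination and rosiglitazone, against 1.23%, 5.22% and 40.1% of all genes. Ppargc1b, a coactivator of mitochondrial genes, was 45.3 ± 8.81 (SD, n = 3) normalized counts with vehicle and 478 ± 175 with rosiglitazone, and its log2 fold changes were 1.61, 1.90 and 3.32 with magnolol, the combination and rosiglitazone (limma adjusted p 0.00910, 0.000912 and 3.1e-07). Pparg, the receptor that rosiglitazone binds, rose with the combination (0.65) and rosiglitazone (0.65), and so did Hsdl2 (0.59 and 1.29). Esrra (0.95) rose with rosiglitazone, while Bdh2 (−1.32) and Cpt1c (−0.63) fell with it.

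In DFAT the same list gave 1 gene higher with dicoumarol, 2 higher and 1 lower with magnolol, 4 higher with the combination and 5 higher and 3 lower with rosiglitazone. These were 2.63%, 7.89%, 10.5% and 21.1% of the tested list in that order, against 1.94%, 4.22%, 10.2% and 10.8% of all genes. Fabp3, a fatty acid binding protein, was 1044 ± 98.5 (SD, n = 3) normalized counts with vehicle and 13806 ± 2652 with rosiglitazone, with a log2 fold change of 3.71 (limma adjusted p 6.07e-13). It also rose with dicoumarol, to 2236 ± 244, with magnolol (2.18) and with the combination (3.19). Ppargc1a, another coactivator, was at 3.33 ± 3.03 with vehicle, 20.4 ± 2.37 with the combination and 64.9 ± 8.32 with rosiglitazone (2.70 and 4.32). Pparg, which is also a fat cell marker, rose with magnolol (0.35), the combination (0.64) and rosiglitazone (0.48), and Ppard with rosiglitazone (0.53). Acadsb fell with magnolol (−0.25) and rosiglitazone (−0.22), and Acacb (−0.28) and Gcdh (−0.27) with rosiglitazone.

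The summed level of fat cell markers was higher in the treated groups of both systems, also where the 33 genes were not. The summed level of 15 fat cell markers in 3T3-L1 was 47153 to 66460 normalized counts with vehicle, 68980 to 104143 with dicoumarol, 99094 to 144381 with magnolol, 124034 to 196278 with the combination and 342742 to 595775 with rosiglitazone, and 14 of 14 tested markers were called higher with rosiglitazone. With dicoumarol all 14 fold changes were above 0, but 0 were called and only 2 markers did not overlap vehicle. Lpl (mean 92380 over the 15 libraries) and Fabp4 (45799) made up most of this 3T3-L1 sum. In DFAT the same sum was 25019 to 26930 with vehicle, 30145 to 32541 with dicoumarol, 45353 to 52490 with magnolol, 68811 to 74448 with the combination and 90777 to 97931 with rosiglitazone, and 12 of 14 tested markers were called higher with rosiglitazone. There 10 of 14 were called higher with magnolol and 12 of 14 with the combination, where the median log2 fold change of the 33 genes was −0.09 and 0.01. The summed level of 9 progenitor markers in 3T3-L1 was 284498 to 311296 with vehicle and 177154 to 226224 with rosiglitazone, where 7 of 9 were called lower. In DFAT, where 7 of them were listed and the collagens Col1a1 and Col3a1 made up most of the sum, it was 1582060 to 1734310 with vehicle, 2530160 to 2898360 with magnolol and 1233700 to 1372040 with rosiglitazone. In bulk RNA a change in the share of cells that became fat cells and a change in RNA per cell cannot be told apart, and the part of either in these results was not tested.

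Several defining markers of other cell types were at or near 0, but others were not. In 3T3-L1 Cd163 and Itgam (macrophage) and Cdh5 and Kdr (endothelial) did not exceed 9.79 normalized counts in any library. The macrophage markers Cd68 (18.5 to 69.2) and Csf1r (4.42 to 25.5) passed the minimum mean. The endothelial markers Pecam1 and Vwf reached 12.8 and 11.6. The 4 listed muscle markers summed there to 67.5 to 117, of which Des made up most. The 5 brown fat markers summed in 3T3-L1 to 9.30 to 41.9 with vehicle and 39.1 to 72.9 with rosiglitazone. Among these Ucp1 did not exceed 1.71, and only Elovl3 and Dio2 passed the minimum mean. Elovl3 was called higher with rosiglitazone, at 40.0 ± 16.8 (SD, n = 3) against 0.775 ± 1.34 with vehicle. Dio2 went the other way, with an uncalled log2 fold change of −1.46. Macrophage markers summed to at most 89.7 in 3T3-L1 and to at most 116 in DFAT, where Cd68 (47.9 to 95.3) made up most. In DFAT Ptprc, Kdr and Vwf did not exceed 1.71, Pecam1 was at 149 to 236, the progenitor marker Dlk1 did not exceed 0.934, and the fat cell marker Retn was listed at 0 in every library. The 7 muscle markers summed in DFAT to 135 to 154 with vehicle and 258 to 311 with the combination, and 3 brown fat markers, mostly Dio2, to 408 to 460 with vehicle, 213 to 294 with dicoumarol, 255 to 343 with magnolol, 236 to 280 with the combination and 436 to 577 with rosiglitazone. Genes of the mitochondrial chromosome took 5.22% to 7.00% of all 3T3-L1 values with vehicle and 7.66% to 14.3% with rosiglitazone. They took 9.58% to 10.2% of the DFAT values with vehicle, 12.2% to 15.1% with the combination and 6.85% to 10.8% with rosiglitazone. Whether this share bears on the 34 nuclear genes was not tested.

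Per kilobase of merged exons in GENCODE M21, which may not be the annotation behind the counts, the levels of the genes in 3T3-L1 vehicle libraries spanned a wide range. Etfb (1990 ± 361 normalized counts per kb, SD, n = 3), Oxct1 (1967 ± 139), Acadl (1473 ± 131), Etfa (1268 ± 21.3) and Acaa2 (1224 ± 42.8) led it, and the first pair did not differ beyond its spread, nor did the last. Cpt1b (7.73 ± 0.0387) and Acad10 (33.5 ± 1.18) were lowest after Bdh1. With rosiglitazone Etfb (4608 ± 795) led, followed by Acsl1 (3400 ± 509), which had stood at 201 ± 72.6 with vehicle, Acadm (3053 ± 354) and Oxct1 (3050 ± 222), and the last 3 did not differ beyond their spread. Whether the counting used strand is not given, so reads of a gene and of one that overlaps it on the opposite strand cannot be told apart. Abundant partners of this kind in both tables were Zdhhc6 at Acsl5 and Dvl2 at Acadvl, and in the pig table were also Ackr4 at Acad11, Ppid at Etfdh, C6orf62 at Acot13, and Hadha and Hadhb at each other.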

How the data were processed

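Poly(A)-selected, dUTP-marked RNA-seq libraries were read as the tables the authors deposited, 1 per species. Their values are signal values, DESeq2-normalized gene counts, per the labels. The submitters' processing notes name bcl2fastq 2.19.1.403, STAR, DESeq2 and GRCm38, the last for the pig libraries as well, and the mouse coordinates are not those of GENCODE M21, so the builds of both tables are not settled. The deposited coordinates served only to find overlapping genes. Low values were whole multiples of 1 read, within 0.02, for 81.6% to 82.7% of values in 3T3-L1 and 89.8% to 91.0% in DFAT, which is too few to recover reads. The depth estimates rest on the size of those steps.

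Genes with a mean of at least 10 were fitted with limma 3.58.1 (R 4.3.3) on log2(value + 1). A single model per table held the 5 groups, a variance trend and 8 two-sided contrasts, and p was adjusted by Benjamini-Hochberg over all genes at 0.05. The log scale understates the change of low genes. All 34 genes are named, and of the other pathway genes at most the 3 largest rises and falls per comparison with vehicle. Some results on other genes are not reported here. The members and lists were chosen with earlier results of these data known. The fit was tested on simulated data. Alternatives were a pseudocount of 4, no filter, a minimum mean of 50, quantile normalization, only the compared groups, no variance trend, a replicate block and each library left out. Upstream sequences are RefSeq's (GRCm38.p6), and exon lengths come from GENCODE M21. Python 3.11.15, pandas 2.3.3, numpy 2.4.6 and matplotlib 3.10.9 made tables and plots.

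The labels give replicate numbers 1 to 3 with no word on their meaning. Deviations from the group means were correlated between libraries of different groups: r was at least 0.106 (median 0.300) in all 30 same-numbered 3T3-L1 pairs, and its median over the 60 differently numbered pairs was −0.142. Deviations within a group cancel out, so the negative median follows largely from the positive one and is not separate evidence. From the same-numbered pairs alone, same numbers were taken to pair the 3T3-L1 libraries. In DFAT every same-numbered pair was above 0.1 only among magnolol, combination and rosiglitazone (0.105 to 0.345). Between vehicle and dicoumarol r was 0.0747 to 0.193, and between dicoumarol and magnolol 0.0510 to 0.153. In both cases it was weaker in the median, but above every differently numbered pair of the same groups. Between vehicle and rosiglitazone it ran from −0.306 to 0.0763. No pair of replicates was a repeated library: their chi-square per gene was at least 15.6 in 3T3-L1 and 8.03 in DFAT, where sampling noise gives about 1.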

Additional observations from a re-analysis of the deposited data

Results flagged for a closer look

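Some genes had all 3 treated libraries above all 3 vehicle libraries in 3T3-L1 and all 3 below them in DFAT under the same treatment. The share of all genes that did so was not counted, so the list describes single genes and not the set. The difference between the systems was not tested, since their tables were normalized separately. With dicoumarol this was Etfa, at log2 fold changes of 0.16 in 3T3-L1 and −0.033 in DFAT, neither of them called. With magnolol it was Acadm (0.37 and −0.18), Acad9 (0.24 and −0.16), Acad11 (0.18 and −0.15), Acaa2 (0.16 and −0.28), Echs1 (0.31 and −0.18) and Etfa (0.27 and −0.13), of which limma called only Acaa2 in DFAT.

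With the combination the genes were Cpt2 (0.74 in 3T3-L1 and −0.32 in DFAT), Acad9 (0.40 and −0.10), Acaa2 (0.29 and −0.17) and Etfa (0.37 and −0.10), and Cpt2 was the one called in both. With rosiglitazone they were Acad11 (0.41 and −0.20), Acaa2 (0.61 and −0.23) and Oxct1 (0.63 and −0.29), each called in both systems. The opposite order, lower in 3T3-L1 and higher in DFAT without overlap, occurred in 0 genes.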

How the results depend on the processing

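No fold change of the 33 tested genes changed sign with a call under any alternative run. With all libraries kept, counts of called genes moved by over 1.5 times in these cases. With no filter on low values, 3T3-L1 magnolol gave 2 and DFAT dicoumarol 1. Quantile normalization gave 2 for 3T3-L1 magnolol, 7 for the DFAT combination and 4 for DFAT combination against magnolol. Without the variance trend the counts were 2 for 3T3-L1 magnolol, 1 for DFAT dicoumarol and 1 for DFAT magnolol. With only the compared groups fitted they were 13 for 3T3-L1 rosiglitazone against the combination, 1 for DFAT magnolol, 5 for DFAT rosiglitazone and 6 for DFAT rosiglitazone against the combination. With the replicate block they were 1 for 3T3-L1 dicoumarol, 13 for 3T3-L1 magnolol, 11 for 3T3-L1 combination against dicoumarol, 5 for DFAT dicoumarol, 5 for DFAT magnolol, 10 for the DFAT combination, 3 for DFAT combination against dicoumarol and 8 for DFAT combination against magnolol. Of these DFAT counts, only that of the combination against magnolol has its share of all genes with the block given here. In DFAT the block comparisons with vehicle or dicoumarol rest on same-numbered libraries with weaker median correlations. Single pairs there ran from −0.306 (vehicle and rosiglitazone) to 0.209 (vehicle and magnolol). The causes were not tested.

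Leaving out 1 library at a time gave, in 3T3-L1, 0 to 0 called genes for dicoumarol, 1 to 3 for magnolol, 7 to 15 for the combination, 24 to 26 for rosiglitazone, 0 to 2 for the combination against dicoumarol, 0 to 0 against magnolol, 14 to 20 for rosiglitazone against the combination and 0 to 0 for the interaction. In DFAT the ranges in the same order were 1 to 2, 1 to 3, 3 to 4, 6 to 10, 1 to 1, 2 to 3, 7 to 11 and 0 to 0. Count tests with edgeR and DESeq2 were not run, since whole reads could not be recovered. A group of 2 libraries left by such a step borrows the spread of the other groups. With a median SE of 0.11, the smallest change called against vehicle in 3T3-L1 was 0.29 (Acaa2 with the combination).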
